A study of Mus musculus with 23 samples.

Results

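The 9 genes described here mark the onset of the primitive streak and the first mesoderm: Wnt3, T, Mixl1, Evx1, Mesp1, Gsc, Tbx6, Apln and Aplnr. They were taken by name from a table of raw counts, which held rows for 9 of the 9 among 23723 gene symbols, and they were followed through every library. The libraries come from mouse embryos collected at E6.25 (days of embryonic development), homozygous (Tet1gt/gt) or heterozygous (Tet1gt/wt) for a gene-trap allele (gt) of Tet1, or wild type (wt). Tet1 encodes a dioxygenase that oxidises 5-methylcytosine in DNA. Each embryo had been divided into epiblast (E) and extra-embryonic tissue (ExE), and 1 library is a pool of tissue lysates from at least 6 embryos of 2 to 3 litters, whose genotype was read after collection. A pool therefore averages embryos that may differ in developmental progress, and no label gives the stage of the embryos within it beyond the nominal day. The homozygous, heterozygous and wt groups hold 4, 4 and 4 pools in E and 3, 4 and 4 pools in ExE, 23 in all. No other allele, agent or strain is named in the labels.

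The primitive streak is the site at the posterior end of the epiblast where cells leave the epithelium and form mesoderm and endoderm. In the mouse, BMP signals from the extra-embryonic ectoderm and Nodal from the epiblast raise Wnt3, and WNT signalling through beta-catenin and TCF/LEF factors then switches on streak genes such as T. Streak genes are known to appear in a sequence around this stage, Wnt3 and T earlier and Mesp1 in the first cells that leave the streak.

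Upstream sequences show what the members share at their start sites, and T is printed with Mesp1 and Evx1, which are among the 3 members with the highest correlation with T over the E pools, and with Gsc, which is not. The RefSeq promoter table (GRCm38.p6) held 7 of the 9 members, and Mixl1 and Aplnr were not among them. Each line gives the 250 bases before the annotated start, read 5′ to 3′ on the gene's strand. RefSeq places the starts of Mesp1, Gsc and Wnt3 inside the gene bounds given further on, which come from another annotation of the same build. The windows of these genes therefore lie partly within those bounds. Capitals mark the TCF/LEF core CTTTGA and the T-box half-site AGGTGT on either strand (TCAAAG and ACACCT on the opposite strand). The windows are chr17:8434173-8434422 (plus strand) for T, chr7:79793591-79793840 (minus) for Mesp1, chr6:52313248-52313497 (plus) for Evx1 and chr12:104473237-104473486 (minus) for Gsc.
T: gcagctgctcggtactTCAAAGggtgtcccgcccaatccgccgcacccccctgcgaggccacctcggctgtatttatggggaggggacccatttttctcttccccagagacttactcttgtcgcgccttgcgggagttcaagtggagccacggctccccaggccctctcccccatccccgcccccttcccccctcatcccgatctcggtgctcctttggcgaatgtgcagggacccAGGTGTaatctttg
Mesp1: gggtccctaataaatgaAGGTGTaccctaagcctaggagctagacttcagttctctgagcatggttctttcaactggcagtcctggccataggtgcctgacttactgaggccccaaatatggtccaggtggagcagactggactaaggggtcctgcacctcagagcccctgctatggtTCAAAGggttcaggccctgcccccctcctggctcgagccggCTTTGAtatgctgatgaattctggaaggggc
Evx1: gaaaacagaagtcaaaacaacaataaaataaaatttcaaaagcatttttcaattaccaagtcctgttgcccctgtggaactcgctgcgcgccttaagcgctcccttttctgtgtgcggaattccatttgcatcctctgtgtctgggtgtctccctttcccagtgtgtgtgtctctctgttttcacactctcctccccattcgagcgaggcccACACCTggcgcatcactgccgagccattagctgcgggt
Gsc: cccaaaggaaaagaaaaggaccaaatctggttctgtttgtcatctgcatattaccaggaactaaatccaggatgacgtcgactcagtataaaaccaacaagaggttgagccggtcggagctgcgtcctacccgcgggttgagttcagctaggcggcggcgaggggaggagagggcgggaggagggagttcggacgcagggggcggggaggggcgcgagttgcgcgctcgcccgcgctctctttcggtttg
The T window held 1 TCF/LEF core, 234 to 229 bases before the start, and 1 T-box half-site, 14 to 9 bases before it. The Mesp1 window held 2 TCF/LEF cores, at 72 to 67 and 31 to 26 bases, and 1 T-box half-site at 233 to 228 bases. By the gene bounds given further on, both of these cores lie inside the gene. The Evx1 window held 1 T-box half-site, 38 to 33 bases before the start, and the letters of neither motif were in the windows of Gsc, Wnt3, Tbx6 and Apln. Of 27018 promoters with a window of the same length, 3796 (14.0%) held the TCF/LEF core and 3240 the T-box half-site, so matches of 6 letters are common. The motifs did not overlap each other. CpG dinucleotides, where most of the methylation that TET1 oxidises lies, numbered 22 in the Gsc and Wnt3 windows, 14 in T, 12 in Apln, 10 in Evx1, 6 in Tbx6 and 2 in Mesp1, against a median of 6 over all promoters.

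Library totals ranged from 4912215 to 9494814 counts, and 3 counts, the limit that a count of 0 allows, correspond to 0.312 to 0.683 CPM (counts scaled to library size with edgeR's TMM factors), a limit that covers counting error only. Tet1, the trapped gene, was at 55.2 to 113 CPM in homozygous E pools, 66.6 to 147 CPM in heterozygous E pools and 127 to 197 CPM in wt E pools. The E pools carried the epiblast markers at a like summed level in each genotype, 8757 to 9839 CPM in homozygous, 8011 to 11210 CPM in heterozygous and 8848 to 10820 CPM in wt pools over 9 genes, with none at 0. They also held transcripts of neighbouring tissues. Summed markers of the visceral endoderm, the layer around the epiblast (17 genes, among them Afp, Apob and Ttr), were at 314 to 748 CPM in homozygous, 253 to 567 CPM in heterozygous and 242 to 1435 CPM in wt pools, highest in wt pool 1. Summed trophoblast markers (9 genes, among them Elf5 and Ascl2) were at 90.7 to 436 CPM in homozygous, 94.9 to 577 CPM in heterozygous and 102 to 347 CPM in wt pools. Short transcripts read relatively high in 3 libraries (homozygous 3 of both tissues and heterozygous 4 of E), where levels relative to the tissue mean changed with log2 transcript length by -0.43 to -0.35 per unit, against -0.07 to 0.15 in the other libraries.

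Wnt3 is the secreted ligand needed for a streak to form. It lies on chromosome 11 from 103774150 to 103817957 on the plus strand (GRCm38, as are all positions given for genes). Wnt3 was detected in all 12 E pools. Homozygous pools 1 to 4 held 11.8, 13.4, 8.97 and 10.9 CPM, heterozygous pools 2 to 5 held 20.5, 12.3, 17.6 and 15.1 CPM, and wt pools 1, 2, 4 and 5 held 20.2, 22.4, 22.4 and 5.03 CPM. All 4 homozygous pools lay below 3 of the wt pools and above wt pool 5, so the groups overlapped. With the genotypes pooled, Wnt3 had the lowest within-genotype SD of the members that passed the count filter, 0.63 on the log2 scale. The median over 12405 genes was 0.50, and 65.4% of genes had a lower SD. In wt pools alone the SD of Wnt3 was 1.03, above those of Apln (0.599) and Aplnr (0.815).

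T, or brachyury (chromosome 17, 8434423 to 8442496, plus strand), encodes the T-box factor that defines the streak. Its E levels varied within every genotype. Homozygous pools 1 to 4 held 10.98, 2.08, 7.08 and 7.29 CPM, heterozygous pools 2 to 5 held 16, 11.6, 16 and 5.65 CPM, and wt pools 1, 2, 4 and 5 held 20.9, 5.49, 31.4 and 5.62 CPM. The wt pools thus fell into a higher pair, 1 and 4, and a lower pair, 2 and 5, which was below 3 of the 4 homozygous pools. Each E library held at least 20 counts of T.

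Mixl1 (chromosome 1, 180693043 to 180697034, minus strand), a homeobox gene of the streak and early mesendoderm, spanned the widest range of CPM of any member. Homozygous pools 1 to 4 held 9.75, 3.64, 1.38 and 8.99 CPM, heterozygous pools 2 to 5 held 39.5, 21.1, 18.6 and 24.2 CPM, and wt pools 1, 2, 4 and 5 held 126, 16.4, 94.2 and 4.88 CPM. All 4 homozygous pools were below all 4 heterozygous pools. The wt pools overlapped the homozygous group, with wt 5 inside the homozygous range, wt 2 between the homozygous and heterozygous pools and wt 1 and 4 above every other pool, and the highest wt pool held 25.9 times the level of the lowest.

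Mesp1 (chromosome 7, 79792241 to 79793788, minus strand) encodes a basic helix-loop-helix factor of the first mesoderm cells. It was at 0.448 CPM (4 counts) in homozygous pool 1 and at 0 counts in homozygous pools 2, 3 and 4. Heterozygous pools 2, 3, 4 and 5 held 2.44, 1.96, 9.67 and 0.788 CPM, and wt pools 1, 2, 4 and 5 held 24.0, 0, 34.7 and 0.592 CPM. Mesp1 thus had 183 and 256 counts in wt pools 1 and 4, 6 to 55 counts in heterozygous pools and 0 to 4 counts in every other E pool. Its pooled within-genotype SD of 2.22 (log2) exceeded that of 99.6% of genes, and that of Mixl1, 1.47, exceeded that of 95.4%.

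Evx1 (chromosome 6, 52313498 to 52318378, plus strand), a homeobox gene of the posterior epiblast and streak, was detected in every E pool. Homozygous pools 1 to 4 held 21.1, 4.68, 10.9 and 14.4 CPM, heterozygous pools 2 to 5 held 36.0, 18.8, 11.1 and 36.1 CPM, and wt pools 1, 2, 4 and 5 held 43.1, 24.8, 38.8 and 4.88 CPM. Again wt pools 1 and 4 were highest, and wt pool 5 and homozygous pool 2 lowest. An antisense gene, Evx1os (listed as 5730457N03Rik), overlaps Evx1, and no source used here gives the strand setting of the counting, so reads of the pair may not be separated. That row was at 1.46 to 11.2 CPM in homozygous, 3.34 to 6.80 CPM in heterozygous and 0.739 to 14.1 CPM in wt E pools.

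Gsc (chromosome 12, 104471209 to 104473330, minus strand), a homeobox gene of the anterior streak that is also a gene of the anterior visceral endoderm, did not follow this order. Homozygous pools 1 to 4 held 6.16, 13.7, 3.28 and 4.41 CPM, heterozygous pools 2 to 5 held 10.2, 5.41, 7.74 and 9.58 CPM, and wt pools 1, 2, 4 and 5 held 6.96, 10.9, 8.95 and 1.92 CPM. Homozygous pool 2, the lowest pool for T and Evx1, was the highest for Gsc. That pool also had the highest summed level of 8 anterior visceral endoderm markers, 109.5 CPM, against 13.2 to 69.1 CPM in the other homozygous pools, 17.4 to 34.9 CPM in heterozygous pools and 18.6 to 43.4 CPM in wt pools, a list that includes Gsc itself. Cer1, a defining gene of that tissue, was at 23.5 CPM in homozygous pool 2, 9.97 CPM in homozygous pool 1, 0 in homozygous pools 3 and 4 and in all heterozygous pools, and 0 to 2.03 CPM in wt pools. The part of that tissue in the Gsc level was not tested.

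Tbx6 (chromosome 7, 126781483 to 126785560, plus strand), a T-box gene of mesoderm leaving the streak, was barely detected. Homozygous pools 1 to 4 held 1.91, 0, 1.04 and 0.509 CPM and heterozygous pools 2 to 5 held 0, 0.921, 0.879 and 0.525 CPM, while wt pools 1, 2 and 5 held 0 and wt pool 4 held 0.136 CPM (1 count). It did not pass the filter on low counts and was therefore not tested with the filter in place. The 2 wt pools richest in Mixl1 and Mesp1 thus held 0 and 1 counts of Tbx6.

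Apln (chromosome X, 48025146 to 48034853, minus strand) encodes the peptide ligand apelin and Aplnr (chromosome 2, 85136225 to 85139923, plus strand) its G protein-coupled receptor, known in mesoderm and its migration. For Apln, homozygous pools 1 to 4 held 30.8, 21.9, 14.2 and 23.2 CPM, heterozygous pools 2 to 5 held 29.1, 27.0, 7.03 and 32.0 CPM, and wt pools 1, 2, 4 and 5 held 50.1, 24.7, 37.0 and 19.5 CPM. For Aplnr, homozygous pools 1 to 4 held 0.112, 3.54, 0 and 0 CPM, heterozygous pools 2 to 5 held 1.17, 2.76, 0.528 and 0.394 CPM, and wt pools 1, 2, 4 and 5 held 5.26, 2.64, 1.22 and 1.77 CPM. The ligand was present in every E pool, and the receptor was low, with its highest homozygous value again in pool 2.

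**Figure D1:**
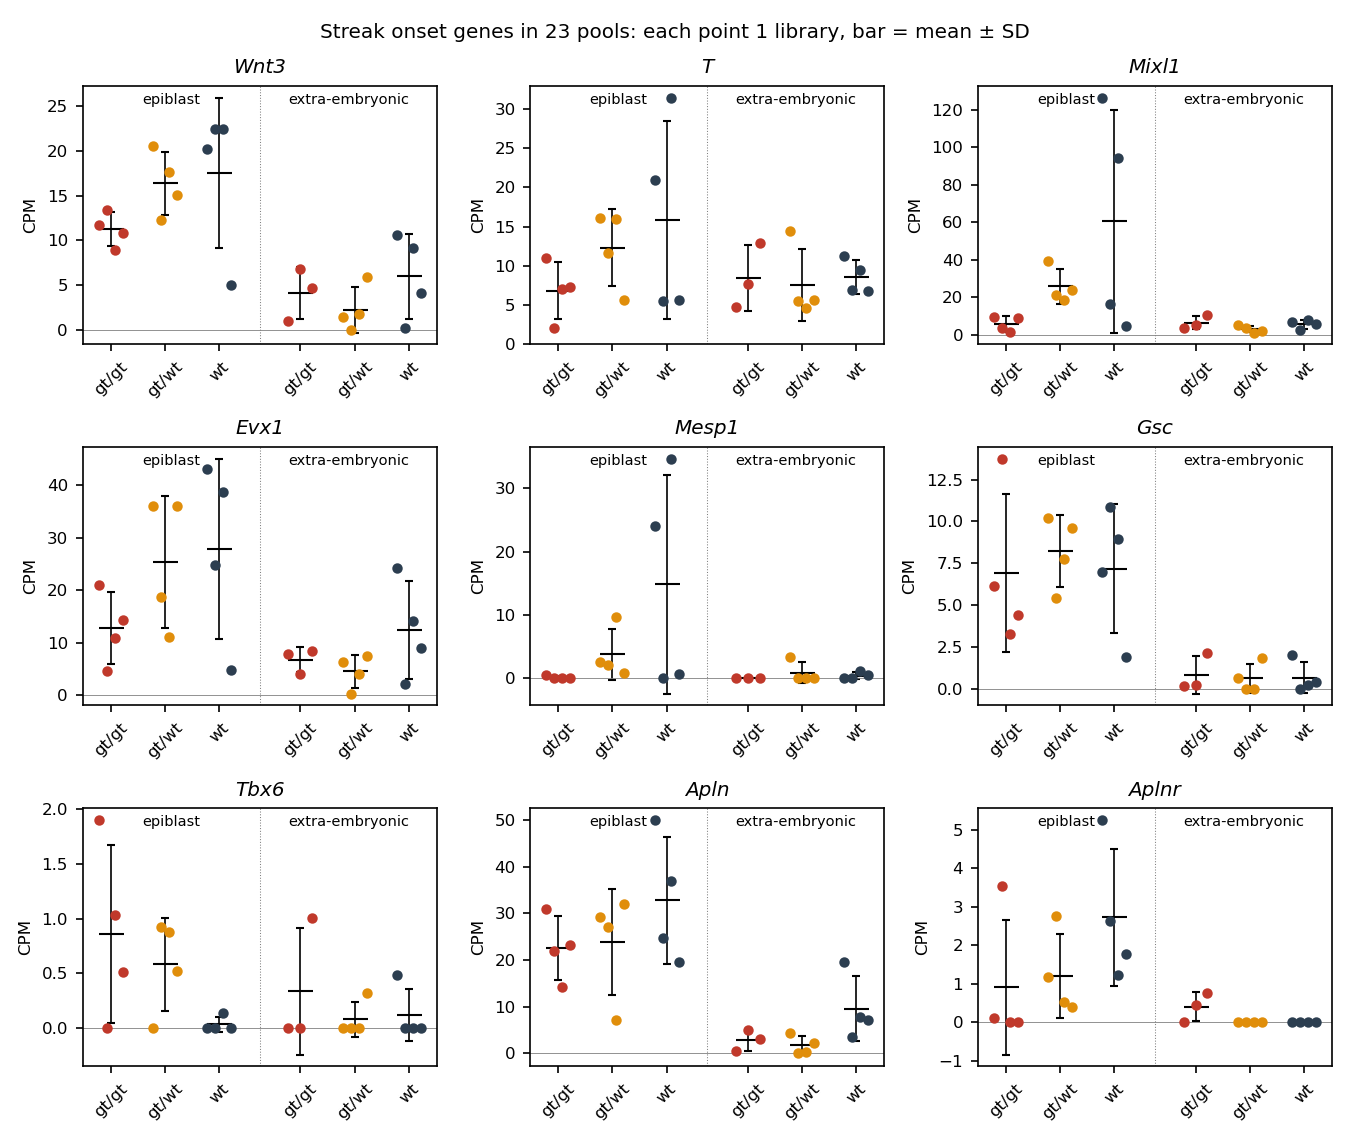
Levels of the 9 genes in CPM (linear axes) in each library, with homozygous (gt/gt), heterozygous (gt/wt) and wt pools in epiblast left and extra-embryonic tissue right of the dotted line. Points are libraries, horizontal marks are group means and bars are ± SD (n = 4, and 3 for homozygous extra-embryonic tissue). Mixl1 in wt epiblast spreads over 4.88 to 126 CPM, wider than the homozygous group at 1.38 to 9.75 CPM.

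Per kilobase of the longest annotated transcript, the order of mean levels over the 12 E pools was Mixl1 (13.4 ± 17.1 CPM per kb, SD), Apln (8.37 ± 3.501), Evx1 (7.66 ± 4.73), Gsc (5.86 ± 2.70), T (5.71 ± 4.06), Wnt3 (4.89 ± 1.82), Mesp1 (4.88 ± 8.92), Aplnr (0.437 ± 0.445) and Tbx6 (0.285 ± 0.348). Each step between neighbours in this order was smaller than the larger of their SDs.

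Ranking the 12 E pools for each member gave an order of pools. Every member had the same weight, also Tbx6, for which homozygous pools 1 and 3 ranked 1 and 2 on 17 and 6 counts. Pools tied at 0 counts took the first rank of the tie (8 for Tbx6, 9 for Mesp1 and 11 for Aplnr). By the mean of the 9 ranks, wt pool 1 (3.00) and wt pool 4 (3.11) came first, each among the 3 highest pools for 6 members. They were followed by heterozygous pools 2 (4.44), 5 (5.44) and 3 (5.67), wt pool 2 (6.00), heterozygous pool 4 (6.33) and homozygous pools 1 (6.67), 2 (7.89) and 4 (8.67). Homozygous pool 3 and wt pool 5 shared the last place (9.44), each among the 3 lowest pools for 6 members. The genotypes were thus not arranged as blocks: wt pools took the first places and a share of the last, heterozygous pools lay in the middle, and homozygous pools filled the lower ranks. These ranks describe the members' own levels and are no independent measure of developmental progress. Homozygous pool 3 and heterozygous pool 4, 2 of these pools, are among the libraries in which short transcripts read high.

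**Figure D2:**
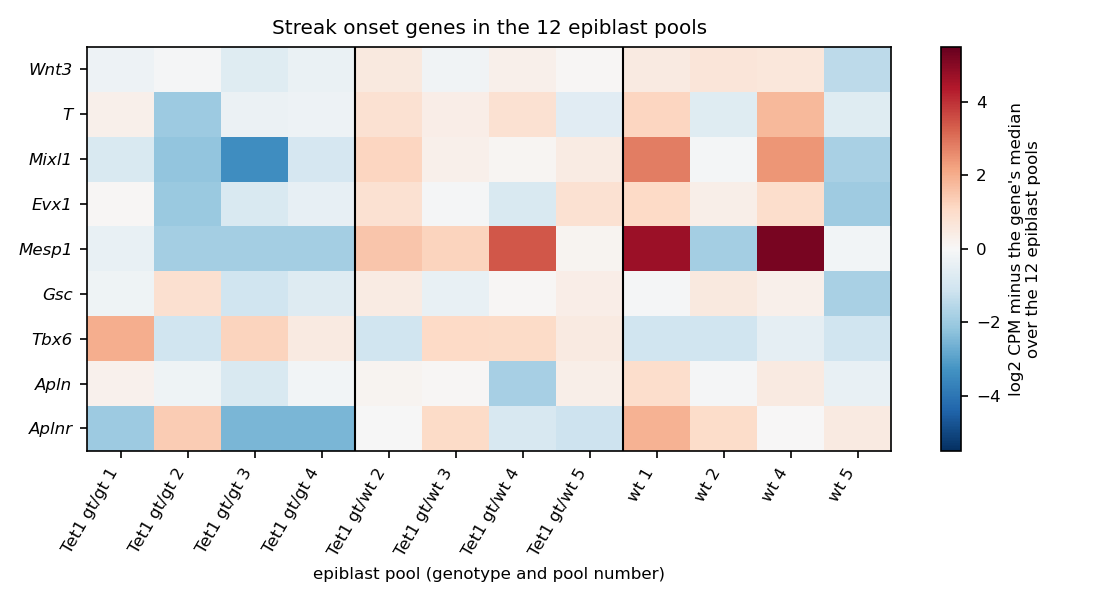
Each cell is the log2 CPM of a gene in 1 epiblast pool minus that gene's median over the 12 pools (red above, blue below); columns are pools, grouped as homozygous (gt/gt), heterozygous (gt/wt) and wt. Mixl1 and Mesp1 are furthest above their medians in wt pools 1 and 4, while wt pool 5 is below the median for most genes.

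The members did not all rise and fall together between pools. Over the 12 E pools, log2 CPM of Mesp1 followed that of T most closely (Pearson r = 0.858, permutation p = 0.00012, adjusted p = 0.558 over 12404 genes; Spearman rho = 0.84, p = 0.00136). Mixl1 came next (r = 0.749, p = 0.00501; rho = 0.748, p = 0.00693) and then Evx1 (r = 0.662, p = 0.0187; rho = 0.615, p = 0.0383), both with an adjusted permutation p of 1.0. None of the 12404 genes passed the adjusted threshold of 0.05 (0.0%), the members included. In the distribution of all genes, r with T was higher than for Mesp1 in 0.0403% of genes, higher than for Mixl1 in 0.234% and higher than for Evx1 in 0.927%. Without homozygous pool 2 and wt pool 4, the pools farthest from the median of T, r was 0.843 for Mesp1, 0.641 for Mixl1 and 0.392 for Evx1. After subtracting the genotype means the values were 0.824, 0.671 and 0.58.

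The other tested members were less like T. Wnt3 had r = 0.461 (permutation p = 0.133; rho = 0.371, p = 0.239) and Apln r = 0.219 (p = 0.491; rho = 0.49, p = 0.111), while Gsc had r = 0.0113 (p = 0.972; rho = -0.0979, p = 0.767) and Aplnr r = 0.00951 (p = 0.977; rho = 0.0035, p = 0.996). Without the same pools these 4 were at 0.487, 0.0916, 0.32 and 0.31. Gsc was instead closest to Wnt3 (r = 0.845), and Mixl1 was close to Mesp1 (0.828) and Evx1 (0.809), given here as descriptions over the same 12 pools. The 5 genes outside the list with the highest r with T were Myo1c (0.898), Wwtr1 (0.863), Cln8 (0.863), Cpm (0.861) and Plekha2 (0.852). Without homozygous pool 2 and wt pool 4 these 5 were at 0.755, 0.725, 0.675, 0.744 and 0.725, beside 0.843 for Mesp1.

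**Figure D3:**
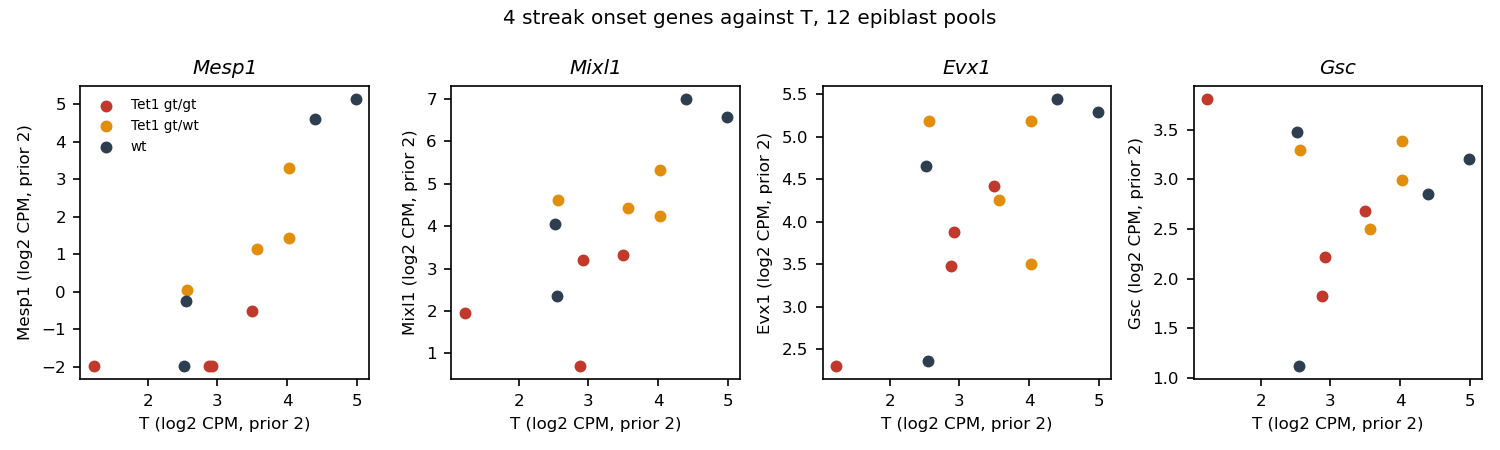
Log2 CPM (prior count 2) of Mesp1, Mixl1, Evx1 and Gsc against that of T, 1 point per epiblast pool, coloured by genotype. Mesp1, Mixl1 and Evx1 are higher where T is higher, and the highest Gsc value belongs to the homozygous pool with the lowest T.

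In homozygous E against wt, the largest differences of the members were those of Mesp1 and Mixl1, and neither passed the test. Mixl1 averaged 5.94 ± 4.08 CPM in homozygous and 60.4 ± 59.2 CPM in wt pools (SD, n = 4 each), and the log2 fold change was -3.33 ± 0.83 (SE; edgeR adjusted p = 0.826). Mesp1 averaged 0.112 ± 0.224 CPM in homozygous and 14.8 ± 17.3 CPM in wt pools, and differed by -6.69 ± 1.73 on the log2 scale (edgeR adjusted p = 0.92), a value that depends on the prior count since 3 homozygous pools were at 0. T was at 6.86 ± 3.65 CPM in homozygous and 15.9 ± 12.7 CPM in wt pools (-1.21 ± 0.61), and Evx1 at 12.8 ± 6.85 CPM in homozygous and 27.9 ± 17.2 CPM in wt pools (-1.12 ± 0.59). Aplnr differed by -1.49 ± 1.22, Wnt3 by -0.63 ± 0.39, Apln by -0.53 ± 0.42 and Gsc by -0.04 ± 0.54, with edgeR adjusted p-values of 0.961 to 0.992 for these and for T and Evx1. The Aplnr value rested on homozygous pool 2, which held 34 counts where the other homozygous pools held 0 or 1: it was -5.46 without that pool and -1.74 to -0.96 without any other.

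Of 8 members that passed the filter on low counts, 0 were called, where 0.0161% of all 12405 genes were (2 genes by edgeR, 17 by DESeq2, with 520 genes below 0.05 before adjustment, Mixl1 and Mesp1 among them). The p-values set each difference against a spread between pools that was estimated from the E pools of all genotypes. The point estimates of all 8 were below 0 in this fit, with a median log2 fold change of -1.17, beside 49.2% of all genes below 0 and a median of 0.01. For Gsc the sign turned with limma-voom and without the libraries with steep length slopes. For each of the 9 members the homozygous and wt pools overlapped, where groups lay apart for 2.36% of genes upwards and 2.07% downwards.

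How much of these differences rests on wt pools 1 and 4 was computed by leaving both out. They were picked after seeing the data as the wt pools highest in Mixl1 and Mesp1, so smaller differences without them follow from that choice. In that setting the log2 fold change of homozygous against wt pools was -0.83 for Mixl1, -1.10 for Mesp1, -0.22 for Evx1 and -0.29 for Wnt3, and it turned to 0.30 for T, 0.11 for Gsc and 0.03 for Apln. With any 1 homozygous or wt pool left out, Mixl1 stayed between -3.72 and -2.68 and T between -1.54 and -0.64. Mesp1 stayed between -9.82 and -5.86, and none of them passed the threshold. Without homozygous pool 1 the other homozygous pools held 0 counts of Mesp1, so that value depends on the prior count. The summed visceral endoderm markers were highest in wt pool 1, and the summed trophoblast markers were 347 and 234 CPM in wt pools 1 and 4 and 102 and 108 CPM in wt pools 2 and 5. The part of these tissues in the members' levels was not tested. In bulk pools, fewer expressing cells and less RNA per cell cannot be told apart.

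**Figure D4:**
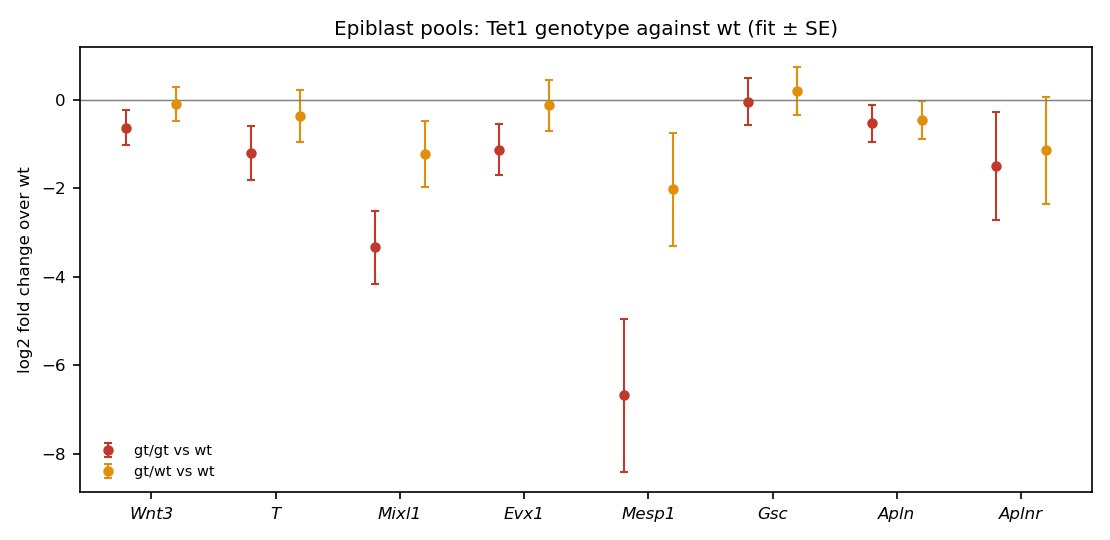
Fitted log2 fold changes (points) ± SE (bars) over wt in epiblast, with homozygous left of heterozygous for each gene; Tbx6 did not pass the count filter. All homozygous estimates lie below 0 in this fit (T, Gsc and Apln turn without wt pools 1 and 4), with Mesp1 at -6.69 and Mixl1 at -3.33, and none passed the edgeR threshold.

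In heterozygous E against wt no member passed the test. Mixl1 was at 25.8 ± 9.38 CPM in heterozygous and 60.4 ± 59.2 CPM in wt pools (-1.22 ± 0.75), and Mesp1 at 3.71 ± 4.03 CPM in heterozygous and 14.8 ± 17.3 CPM in wt pools (-2.02 ± 1.28). T differed by -0.36 ± 0.60, Evx1 by -0.12 ± 0.57, Wnt3 by -0.10 ± 0.39, Apln by -0.46 ± 0.42, Aplnr by -1.14 ± 1.21 and Gsc by 0.20 ± 0.54. The edgeR adjusted p-values were 0.982 to 0.993 and 0 of 8 members were called, as were 0.0% of all genes (298 below 0.05 before adjustment, and 4 by DESeq2). The groups overlapped for every member, where 1.34% of genes lay apart upwards and 1.54% downwards. With any 1 heterozygous or wt pool left out, Mixl1 stayed between -1.61 and -0.57 and Mesp1 between -3.08 and -1.16, while T ranged from -0.65 to 0.21. After adding the mean visceral endoderm marker level to the model the differences were 0.62 for Mixl1, 1.87 for Mesp1 and 0.29 for T. That level (mean log2 CPM) was -0.05 to 0.82 in heterozygous and 1.01 to 5.32 in wt pools. These values thus extrapolate beyond any level the groups share, and marker level and genotype cannot be told apart. Of the 17 visceral endoderm markers 5 to 8 were at 0 counts in heterozygous pools, against 0 to 3 in wt pools.

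Homozygous against heterozygous E sets aside the levels of the wt pools, although those pools entered the fit and its estimate of the spread. Here Mixl1 was at 1.38 to 9.75 CPM in homozygous and 18.6 to 39.5 CPM in heterozygous pools, a difference of -2.11 ± 0.80 (edgeR adjusted p = 1.0). Mesp1 was at 0 to 0.448 CPM in homozygous and 0.788 to 9.67 CPM in heterozygous pools, a difference of -4.66 ± 1.69 (edgeR adjusted p = 1.0). For these 2 members every homozygous pool was lower than every heterozygous pool, as was so for 0.919% of the 12405 genes, with 0.935% higher. With only these 2 groups in the fit Mixl1 was at -2.11 (edgeR adjusted p = 1.0), and Mesp1 did not pass the filter. Visceral endoderm markers moved the other way: 16 of the 16 tested were higher in homozygous pools and 0 were called, with a median log2 fold change of 3.1 beside 0.01 over all genes, and of 8 anterior visceral endoderm markers 7 were higher (median 1.77). Of the 17 visceral endoderm markers 0 to 4 were at 0 counts in homozygous pools, against 5 to 8 in heterozygous pools. With the mean level of these markers in the model the differences were -3.47 for Mixl1 and -9.31 for Mesp1 (edgeR adjusted p = 1.0 for both). That level (mean log2 CPM) was 1.05 to 4.34 in homozygous and -0.05 to 0.82 in heterozygous pools. The adjusted values thus extrapolate beyond any level the groups share, and marker level and genotype cannot be told apart. The part of that tissue was not tested. T differed by -0.84 ± 0.61, Evx1 by -1.0 ± 0.58, Wnt3 by -0.53 ± 0.39, Aplnr by -0.35 ± 1.22, Gsc by -0.24 ± 0.54 and Apln by -0.08 ± 0.42, and 0 of 8 members were called, against 0.0% of all genes (308 below 0.05 before adjustment, Mixl1 and Mesp1 among them, and 6 by DESeq2). The comparison shares its homozygous pools with that against wt.

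None of the tested genes of the same process outside the list passed the threshold in homozygous E. Of 30 other streak and nascent mesoderm genes 21 were tested, 12 were lower, 9 higher and 0 were called, with a median of -0.15. The smallest p-values were those of Lefty2, an inhibitor of Nodal that Nodal induces (8.32 CPM in homozygous and 33.0 CPM in wt pools, -1.97 ± 0.43, edgeR adjusted p = 0.488), and Sp5, a direct WNT target (2.33 CPM in homozygous and 8.81 CPM in wt pools, -1.91 ± 0.76), followed by Fst (-0.55 ± 0.30), Wnt8a (-0.98 ± 0.58) and Eomes (-0.41 ± 0.26), each with an edgeR adjusted p of 0.961. For Sp5, homozygous pools 1 to 4 held 4.15, 0.728, 2.24 and 2.21 CPM, against 14.7, 3.29, 15.3 and 1.92 CPM in wt pools 1, 2, 4 and 5, so wt pools 1 and 4 were high as for T. For Lefty2, homozygous pools held 6.05, 13.2, 5.35 and 8.65 CPM and wt pools 1, 2, 4 and 5 held 36.3, 25.03, 48.4 and 22.5 CPM, and the groups did not overlap. Groups lay apart downwards for 2.07% of all 12405 genes in this comparison.

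Of 32 genes of the WNT, NODAL and BMP pathways that act upstream, all were tested, 18 were lower in homozygous E and 0 were called (median -0.07). The smallest p-values belonged to Nkd1, a feedback inhibitor of WNT signalling (-1.44 ± 0.45), Smad3, a Nodal transducer (-0.77 ± 0.29), Axin2, another WNT feedback gene (-0.88 ± 0.40), Bmpr2, a BMP receptor (-0.56 ± 0.32), and Smad1, a BMP transducer (-0.34 ± 0.23), each with an edgeR adjusted p of 0.961. For Nkd1, homozygous pools 1 to 4 held 4.60, 6.77, 6.38 and 2.21 CPM and wt pools 1, 2, 4 and 5 held 18.0, 14.6, 12.9 and 8.87 CPM. These groups did not overlap, as was so downwards for 2.07% of all 12405 genes. Axin2 was at 5.35 to 8.85 CPM in homozygous and 6.65 to 16.8 CPM in wt pools, which overlapped. Of 15 genes of later mesoderm and blood 8 were tested, 6 of them higher and 0 called (median 0.45).

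Most of the streak genes were higher in E than in ExE. Over the mean of the genotypes, 7 of the 8 tested members were called, all higher in E, where 23.9% of 13595 genes were called higher in E and 46.1% in either direction. Apln averaged 26.4 ± 11.02 CPM in E (SD, n = 12) and 4.84 ± 5.54 CPM in ExE (SD, n = 11), 2.86 ± 0.47 higher on the log2 scale (edgeR adjusted p = 3.28e-05). Gsc averaged 7.43 ± 3.42 CPM in E and 0.695 ± 0.861 CPM in ExE (3.34 ± 0.65, edgeR adjusted p = 2.21e-04), and Mixl1 30.7 ± 39.2 CPM in E and 5.02 ± 2.71 CPM in ExE (2.09 ± 0.44, edgeR adjusted p = 4.78e-04). Wnt3 averaged 15.04 ± 5.61 CPM in E and 4.17 ± 3.63 CPM in ExE (1.93 ± 0.49, edgeR adjusted p = 0.00255), and Evx1 22.04 ± 13.6 CPM in E and 8.00 ± 6.59 CPM in ExE (1.52 ± 0.43, edgeR adjusted p = 0.00616).

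T was the tested member that was not called. It was at 11.7 ± 8.30 CPM in E and 8.21 ± 3.38 CPM in ExE, 0.42 ± 0.34 on the log2 scale (edgeR adjusted p = 0.325) and -0.08 without wt E pools 1 and 4. Its ExE mean was 70.3% of its E mean. The same share was 36.3% for Evx1, 27.7% for Wnt3, 18.4% for Apln, 16.3% for Mixl1, 9.35% for Gsc, 6.96% for Mesp1 and 6.81% for Aplnr, and 33.3% for Tbx6 on few counts. Among epiblast markers it was 79.7% for Utf1, 20.8% for Nanog, 14.3% for Pou5f1, 13.1% for Otx2 and 7.87% for Fgf5. Homozygous ExE pools 1, 3 and 4 held 4.72, 7.74 and 12.96 CPM of T. Heterozygous ExE pools 1, 2, 3 and 5 held 14.5, 5.59, 4.69 and 5.64 CPM, and wt ExE pools 1, 2, 4 and 5 held 11.3, 6.97, 9.496 and 6.76 CPM. At least 34 counts of T were present in each ExE library, and the genotypes overlapped. In the mouse, T transcripts are known in the extra-embryonic ectoderm at this stage as well as in the streak.

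Mesp1 and Aplnr had small or no counts in ExE. Mesp1 was at 0 in all 3 homozygous ExE pools, at 3.29 CPM in heterozygous pool 1 with 0 in the others, and at 0, 0, 1.07 and 0.405 CPM in wt pools 1, 2, 4 and 5. Its E against ExE call (3.52 ± 1.39, edgeR adjusted p = 0.0439) was lost by DESeq2 (0.0685) and limma-voom (0.101), without the 3 libraries with steep length slopes (0.0722) and without wt E pools 1 and 4 (edgeR adjusted p = 0.309), and the fit depends on the prior count because a group is at 0. It was also lost, with an edgeR adjusted p of 0.0503 to 1.0, when any of these libraries was left out: E homozygous 1, E heterozygous 2 and 4, E wt 1 and 4, ExE homozygous 1, 3 and 4, ExE heterozygous 2, 3 and 5, and ExE wt 1, 2 and 5. Aplnr was at 0 counts in all heterozygous and wt ExE pools and at 0, 2 and 6 counts in homozygous ExE pools 1, 3 and 4. Against 3 counts in the ExE library of the group where they weigh most, Aplnr was at least 2.82-fold higher in E than in ExE in heterozygous and at least 6.71-fold higher in wt pools. With pool number as a block the adjusted p for Aplnr over the mean of the genotypes was 0.0613 by edgeR, past the threshold no longer. Tbx6 held 0 to 8 counts in each ExE library.

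Within genotypes the call of tissue differed by gene. In homozygous pools only Apln was called (3.05 ± 0.89, edgeR adjusted p = 0.0218), at 14.2 to 30.8 CPM in E and 0.405 to 5.01 CPM in ExE, 1 of 8 tested members where 16.8% of genes were called, 7.66% higher and 9.12% lower. That call was lost without ExE homozygous pool 1 (edgeR adjusted p = 0.0973) and without pool 4 (0.0569). Gsc (2.97 ± 1.19, edgeR adjusted p = 0.0903) was called without ExE homozygous pool 4 (0.0363), by DESeq2 (adjusted p = 0.026) and by limma-voom (0.0324). In heterozygous pools 6 were called, all higher in E, where 27.0% of genes were called and 14.9% were higher: Apln (3.76 ± 0.81), Gsc (3.67 ± 1.08), Mixl1 (3.02 ± 0.76), Wnt3 (2.81 ± 0.84) and Evx1 (2.48 ± 0.74), with edgeR adjusted p of 0.00144 to 0.0158, and Aplnr (edgeR adjusted p = 0.0217). In wt pools 4 were called, all higher in E, where 17.3% of genes were called, 7.98% higher and 9.28% lower: Mixl1 (3.40 ± 0.75, edgeR adjusted p = 0.00356), Gsc (3.39 ± 1.08, 0.0323), Aplnr (0.0158) and Mesp1 (5.28 ± 1.82, 0.04997).

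Per the labels, E and ExE pools that carry the same number came from shared litters for 3 of 4 replicates. The wt pools share 4 numbers between tissues and the labels do not say which of them lacks shared litters, so the block in wt may hold a pair that is not one. With the pool number as a block, Wnt3 (edgeR adjusted p = 0.058) and Aplnr (0.0826) lost their call in heterozygous pools and Mesp1 gained one (0.0424), as it did without ExE heterozygous pool 1 (0.0348). In wt pools Mesp1 lost its call with the block (edgeR adjusted p = 0.0814) and Apln gained one (0.0347). Without wt E pools 1 and 4, 1 member stayed called in wt, and the differences were 0.90 for Mixl1 (edgeR adjusted p = 0.448), 3.23 for Gsc (0.104), -0.35 for Mesp1 and -0.63 for T. Leaving out E wt pool 4 or any of ExE wt pools 2, 4 and 5 left 2 members called, with Gsc (edgeR adjusted p of 0.0619 to 0.0867) and Mesp1 (0.0558 to 0.141) no longer past the threshold. Gsc also lost its call without E wt pool 2 (edgeR adjusted p = 0.076) and Mesp1 without E wt pool 1 (0.0941) or ExE wt pool 1 (0.0953), while Apln gained one without ExE wt pool 1 (0.0397).

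**Figure D5:**
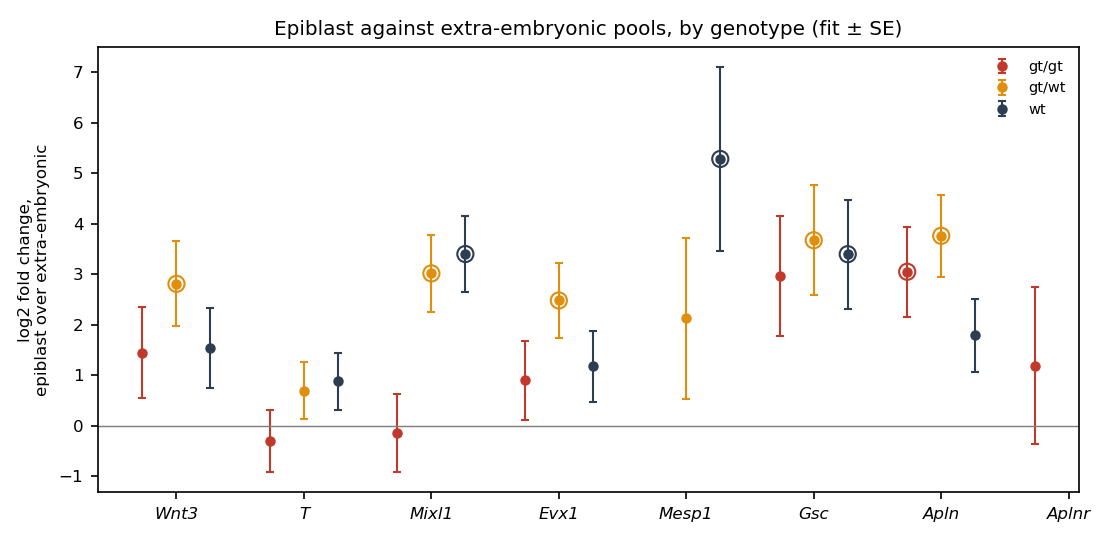
Fitted log2 fold changes (points) ± SE (bars) of epiblast over extra-embryonic tissue within homozygous, heterozygous and wt pools; open circles mark an edgeR adjusted p under 0.05. Values are left out where all extra-embryonic pools of the genotype had 0 counts. Mixl1 is at -0.14 in homozygous pools and 3.40 in wt pools.

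In homozygous embryos Mixl1 averaged 5.94 ± 4.08 CPM in E (SD, n = 4) and 6.53 ± 3.57 CPM in ExE (SD, n = 3), where wt embryos held 60.4 ± 59.2 CPM in E and 5.72 ± 2.30 CPM in ExE (SD, n = 4 each). The difference between tissues of the homozygous against wt change was -3.54 ± 1.05 on the log2 scale for Mixl1 (edgeR adjusted p = 0.9999), and it was -1.04 without wt E pools 1 and 4. For T it was -1.19 ± 0.83, for Apln 1.26 ± 1.09, for Gsc -0.43 ± 1.48, for Evx1 -0.28 ± 1.04 and for Wnt3 -0.09 ± 1.18. For Mesp1 and Aplnr no such value is given, since a group was at 0 counts, and 0 members were called, against 0.0% of all genes (416 below 0.05 before adjustment, Mixl1 among them, and 3 by DESeq2).

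Within ExE, 6 members passed the filter and 0 were called in homozygous or heterozygous pools against wt, against 0.0% of all genes in each comparison (935 and 510 genes below 0.05 before adjustment, and 13 and 18 by DESeq2). In homozygous against wt ExE the log2 fold changes were -1.80 ± 1.12 for Apln, -0.85 ± 0.81 for Evx1, -0.55 ± 1.15 for Wnt3, 0.36 ± 1.60 for Gsc, 0.19 ± 0.62 for Mixl1 and -0.03 ± 0.50 for T, with edgeR adjusted p of 0.765 to 0.998. For Apln, homozygous pools 1, 3 and 4 held 0.405, 5.01 and 3.02 CPM, heterozygous pools 1, 2, 3 and 5 held 4.38, 0, 0.223 and 2.24 CPM, and wt pools 1, 2, 4 and 5 held 19.55, 3.43, 7.83 and 7.16 CPM. Heterozygous against wt it differed by -2.43 ± 1.02 (edgeR adjusted p = 0.9998), followed by Evx1 at -1.42 ± 0.75 and Wnt3 at -1.36 ± 1.07. In the same comparison 9 of 9 epiblast markers were lower (median log2 fold change -1.31 beside 0.01 over all genes, 0 called). So were 9 of 10 tested visceral endoderm markers (median -1.38, 0 called). Of 5 tested maternal decidua markers 4 were higher (median 0.551, 0 called). Pou5f1, a defining epiblast gene, averaged 39.7 ± 21.1 CPM in heterozygous and 151 ± 125 CPM in wt ExE pools (SD, n = 4 each). For all 9 members the ExE groups overlapped in both comparisons, where 3.07% of genes lay apart upwards and 2.82% downwards in homozygous pools and 1.77% upwards and 2.07% downwards in heterozygous pools.

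The members' levels in ExE were set beside those of an epiblast gene, an alternative added after seeing the data. Pou5f1 ranged from 13.5 to 394 CPM over the 11 ExE libraries, against 629 to 1172 CPM in E. Its log2 CPM correlated across those libraries with that of Mixl1 (Pearson r = 0.773, permutation p = 0.00558, adjusted p = 0.131; Spearman rho = 0.718, p = 0.0162) and Wnt3 (r = 0.761, p = 0.00711, adjusted p = 0.146; rho = 0.827, p = 0.00274), and with that of Apln (r = 0.687, p = 0.0204; rho = 0.736, p = 0.0119). For Gsc, T and Evx1 r was 0.565, 0.539 and 0.522 (permutation p = 0.0743, 0.0886 and 0.0944), with rho of 0.642, 0.618 and 0.618 (p = 0.0387, 0.0477 and 0.0466). No member passed the adjusted threshold, where 1.07% of 12354 genes did, among them the epiblast genes Otx2 (r = 0.96, adjusted permutation p = 0.0112) and Fgf5 (r = 0.896, 0.04). Without the 2 libraries farthest from the median of Pou5f1, r was 0.769 for Mixl1, 0.857 for Wnt3, 0.631 for Apln, 0.672 for Gsc, 0.52 for T and 0.714 for Evx1. The part of epiblast cells in the ExE levels of the members was not tested.

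Same-numbered pools of the 2 tissues were also set beside each other, an alternative added after seeing the data. Over the 10 numbers shared within a genotype, r between E and ExE log2 CPM was 0.509 for Mesp1 (permutation p = 0.0876; rho = 0.394, p = 0.276), 0.214 for T (p = 0.55; rho = 0.0909, p = 0.811), 0.0141 for Mixl1 (p = 0.969; rho = -0.0545, p = 0.891) and -0.702 for Aplnr (p = 0.0215, adjusted p = 0.185; rho = -0.694, p = 0.0325), and none of 13595 genes passed the adjusted threshold (0.0%). Without the 2 pools farthest from the median in E, r was 0.0768 for Mesp1, -0.433 for T and -0.0684 for Mixl1, and it could not be computed for Aplnr. The wt pair 1 and 4, highest in E, was also highest among wt ExE pools for T, at 11.3 and 9.496 CPM. The same pair was highest for Evx1 (24.35 and 14.1 CPM), Mixl1 (6.84 and 7.83), Wnt3 (10.55 and 9.14) and Apln (19.55 and 7.83). It was highest there for Pou5f1 as well, at 302 and 199 CPM against 19.6 and 85.4 CPM in wt ExE pools 2 and 5, and for Fgf5 and Otx2. For Mesp1 and Gsc it was not. Mesp1 was at 0 in ExE wt pool 1 and 1.07 CPM in pool 4. Gsc was at 2.04 and 0.237 CPM in these pools, against 0.405 CPM in ExE wt pool 5.

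Of 26 tested streak and nascent mesoderm genes outside the members, 18 were called higher in E and 5 higher in ExE. Over all 13595 genes, 23.9% were called higher in E and 22.1% higher in ExE. The 5 smallest p-values were those of Eomes, a T-box gene used in streak and trophoblast (164.5 CPM in E and 453 CPM in ExE, -1.44 ± 0.14), Tdgf1, a Nodal co-receptor (247 CPM in E and 39.6 CPM in ExE, 2.73 ± 0.28), Fgf8, a streak growth factor (67.9 CPM in E and 12.9 CPM in ExE, 2.54 ± 0.33), Cyp26a1, which degrades retinoic acid (20.2 CPM in E and 156 CPM in ExE, -3.02 ± 0.43), and Wnt5a, a ligand of non-canonical WNT signalling (2.80 CPM in E and 0.263 CPM in ExE, with 0 counts in all heterozygous ExE pools), with edgeR adjusted p of 4.15e-08 to 1.73e-05. Of 32 upstream pathway genes 16 were called higher in E and 6 higher in ExE, beside the same 23.9% and 22.1% of all genes. Smad3 (-1.75 ± 0.14), the proprotein convertase gene Pcsk6 (-2.54 ± 0.21), the WNT receptor gene Fzd7 (1.84 ± 0.19), the TCF/LEF factor gene Lef1 (3.41 ± 0.39) and Id2, a BMP target (-3.48 ± 0.42), had the smallest p-values, and Bmp4, the BMP ligand, was at 9.44 CPM in E and 130 CPM in ExE (-3.78 ± 0.47, edgeR adjusted p = 9.63e-07).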

How the data were processed

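RNA from pools of E6.25 mouse epiblast or extra-embryonic tissue (1 to 10 ng per pool, RIN above 8.0) was amplified with the SMARTer Ultra Low kit and sequenced as 75-base single reads, per the labels' protocols. The authors deposited raw read counts per gene symbol for 23 libraries. The submitters' processing notes name FastX 0.0.13, ShortRead 1.16.3, cutadapt 1.7.1, TopHat2 2.0.12 and the build mm10 (GRCm38). No source used here gives the counting program, its annotation or its strand setting. Of 23725 lines, 27 carried symbols altered to dates and 4 shared a symbol.

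Counts were tested with edgeR 4.0.16 (R 4.3.3): filterByExpr (minimum count 10, minimum total 15), TMM scaling, the quasi-likelihood test, two-sided, and Benjamini-Hochberg adjustment across every gene that passed the filter (threshold 0.05). The genotypes of a tissue shared 1 fit, and the tissue comparisons used all 23 libraries. Log2 CPM used a prior count of 2, and permutation tests 100000 resamples. Alternatives were DESeq2 1.42.0, limma-voom (limma 3.58.1), other scaling, no filter, a replicate block, a visceral endoderm covariate and libraries left out. The block pairs same-numbered E and ExE pools on the labels alone, which give shared litters for 3 of 4 replicates without saying which. Deviations from group means correlated above 0.1 in 6 of 10 such pairs. They did so in 11 of 34 E and ExE pairs of the same genotype with different numbers. The test was checked on simulated counts.

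The members and gene lists were chosen with earlier results of these data known. All 9 members are named; of other lists at most the 5 genes with the smallest p, plus up to 5 more past the threshold, and the 5 genes most like T. Markers of other tissues appear as sums with defining genes. Promoter sequences are from RefSeq (GRCm38.p6), which held 7 of the 9 members. Transcript lengths were found for 95.0% of symbols.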

Additional observations from a re-analysis of the deposited data

Results flagged for a closer look

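In 8 of 43 groups of 4 pools, the highest or lowest pool stood apart from the others by Dixon's 95% criterion. Chance alone flags about 1 in 20 groups, a rate that does not apply to 5 of the 8, in which the other 3 pools were at 0 and any count meets the criterion. In heterozygous extra-embryonic pool 1, T was at 14.5 CPM (132 counts) where the other 3 pools were at 4.69 to 5.64 CPM, and Mesp1 was at 3.29 CPM (30 counts) where the others were at 0. In homozygous epiblast pool 1, Mesp1 was at 0.448 CPM (4 counts) and the others were at 0. In homozygous epiblast pool 2, Aplnr was at 3.54 CPM (34 counts), against 0 to 0.112 CPM in the others. In wt epiblast pool 5, Wnt3 was at 5.03 CPM (34 counts), below the others at 20.2 to 22.4 CPM. Tbx6 stood apart on 1 to 4 counts where the other pools were at 0: at 0.319 CPM in heterozygous extra-embryonic pool 5, 0.136 CPM in wt epiblast pool 4 and 0.48 CPM in wt extra-embryonic pool 1.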

How the results depend on the processing

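The 5 genotype comparisons and the difference between tissues called 0 members under every alternative run, which included DESeq2, limma-voom, RLE scaling, no count filter, a replicate block and leaving out each library. DESeq2 gave no adjusted p for the members in homozygous against wt ExE, so that comparison has no DESeq2 count. Where Tbx6, Aplnr or Mesp1 had 0 counts, that count allows levels up to 0.312 to 0.683 CPM, depending on the library. The cause of the changes listed here was not tested.

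Directions of members that were not called turned as follows, as log2 fold changes. For homozygous against wt E, Gsc was 0.0454 with limma-voom and 0.18 without the 3 libraries with steep length slopes, and without wt pools 1 and 4 T was 0.305, Gsc 0.112 and Apln 0.0314. For heterozygous against wt E, limma-voom gave 0.225 for Mesp1, 0.121 for Evx1 and 0.0498 for Wnt3, and Evx1 was 0.124 without the steep-slope libraries. The visceral endoderm covariate gave 0.29 for T, 0.624 for Mixl1, 1.87 for Mesp1, 0.453 for Evx1, 0.293 for Wnt3, 0.116 for Apln and 0.457 for Aplnr. Heterozygous and wt pools did not overlap in that covariate, so these values extrapolate. Without wt pools 1 and 4, which were picked as the highest wt pools for Mixl1 and Mesp1, the values were 1.15 for T, 1.28 for Mixl1, 3.64 for Mesp1, 0.781 for Evx1, 0.255 for Wnt3 and 0.114 for Apln. Apln was 0.029 with limma-voom for homozygous against heterozygous E, and T was 0.0341 without the steep-slope libraries for homozygous against wt ExE.

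No label ties pools of different genotypes that carry the same number. Deviations from group means correlated above 0.1 in 6 of 9 such pairs in E and 0 of 7 in ExE. Between pools of different genotypes and different numbers they did so in 16 of 39 pairs in E and 15 of 33 in ExE. Whether same-numbered pools of different genotypes share litters is not known. With the replicate block, heterozygous against wt E was 0.169 for T, 0.5 for Mixl1, 0.602 for Mesp1, 0.464 for Evx1 and 0.231 for Wnt3, Gsc was 0.0589 for heterozygous against wt ExE, and the block called 0 members in each genotype comparison. In E against ExE the block called 6 members over the mean of genotypes, 1 in homozygous, 5 in heterozygous and 4 in wt pools, and within homozygous pools it gave 0.0777 for T and -2.3 for Aplnr. It changed no call beyond those given with the tissue comparison.

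In E against ExE of homozygous pools, DESeq2 and limma-voom called 2 members, Aplnr was -0.113 with limma-voom and Mixl1 0.0529 without the steep-slope libraries. Without wt E pools 1 and 4, T was -0.0839 over the mean of genotypes, and in wt the count was 1, T -0.634 and Mesp1 -0.348. In the difference between tissues, Wnt3 was 0.515 without the steep-slope libraries, and T was 0.322, Evx1 0.627 and Wnt3 0.253 without wt E pools 1 and 4. In wt E against ExE, Mixl1 lost its call with limma-voom (adjusted p = 0.0508), as did Mesp1 with DESeq2 (0.103) and limma-voom (0.217). Apln gained a call with DESeq2 (adjusted p = 0.0499), limma-voom (0.0141), only the groups compared (0.0199) and without the steep-slope libraries (0.0455), and Wnt3 with limma-voom (0.0491). The correlation with T was -0.0539 for Gsc and -0.00865 for Aplnr without the 2 steep-slope E libraries, and -0.0555 for Gsc and -0.364 for Aplnr in deviations from genotype means.

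Leaving out 1 library at a time gave these ranges where a direction or count changed. For homozygous against wt E, Gsc ranged from -0.629 to 0.22. For heterozygous against wt E, Evx1 ranged from -0.474 to 0.166, Wnt3 from -0.401 to 0.0436, T from -0.649 to 0.207 and Gsc from -0.114 to 0.468. For homozygous against heterozygous E, Apln ranged from -0.384 to 0.0938 and Aplnr from -4.33 to 0.413. For homozygous against wt ExE, T ranged from -0.513 to 0.244, Mixl1 from -0.376 to 0.453 and Gsc from -1.86 to 0.838. For heterozygous against wt ExE, Gsc ranged from -0.497 to 0.317 and T from -0.696 to 0.0109. For E against ExE the count of members called ranged from 0 to 1 in homozygous pools and from 2 to 4 in wt pools, while in homozygous pools Mixl1 ranged from -0.498 to 0.412, Aplnr from -2.79 to 2.1 and T from -0.643 to 0.143. In the difference between tissues, Evx1 ranged from -0.839 to 0.0764, Wnt3 from -0.56 to 0.422 and Gsc from -2.05 to 1.8. The correlation with T ranged from -0.178 to 0.304 for Aplnr and from -0.192 to 0.389 for Gsc.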
